A study of Drosophila melanogaster with 18 samples.

Results

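The comparison set males against females at day 1 in RNA of the 2nd antennal segment of the fly. It held 2 male libraries (CT01 and CT02) and 2 female libraries (CT03 and CT04), 4 of the 18 samples of the series, and they were chosen by the age and sex in the labels and by no measured value. All groups were virgin flies of Canton-S, a wild-type strain, with no transgene, allele or agent named for any of them. Flies were taken under CO2 as they eclosed, the sexes were aged in separate vials, and segments of several animals, in a number not given in the sources used here, were dissected on ice and pooled for each library. Nothing in the labels says that the 2 libraries of a group came from separate cultures, so p-values measure the spread between these samples, which may be technical. The other 14 libraries were males of days 5, 10, 25 and 50 and females of days 5, 25 and 50, with 2 libraries of each, and they entered here to set the spread and, for days 5 and 25, for a test of the sex difference at day 1 against that of older flies.

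The 2nd antennal segment houses Johnston's organ, the chordotonal organ with which the fly hears. Sex in the fly is read cell by cell from the X chromosomes. In females *Sxl* is switched on, directs the splicing of *tra* RNA, and through *tra* and *tra2* sets the female forms of *dsx* and *fru*; it also blocks translation of *msl-2*. In males *msl-2* protein is made and joins the roX RNAs and other proteins in the dosage compensation complex, which raises transcription of the single X. Yolk proteins are the best known female products of the fat body, a tissue that also lies in the head and antenna.

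Reads in genes numbered 13925853 and 12692631 in the male libraries and 10164944 and 12264908 in the female libraries, within the range of the series (5815182 to 14315927). The values are normalised read counts, that is, reads of each gene after the authors' division by a size factor for each library. A log2 difference is the mean of log2(value + 1) in males minus that in females, and it understates the difference of genes with few reads. With limma-trend, whose spread came from all 9 groups of age and sex, a call needed an adjusted p (Benjamini-Hochberg) under 0.1 together with a fold change above 1.5. An exact permutation of 2 against 2 libraries cannot go below p = 0.333 and was not used. The 3 channel genes of auditory neurons were present in all 4 libraries. *nan* stood at 726 and 784 in males and 595 and 670 in females, *iav* at 1065 and 1079 against 663 and 945, and *nompC* at 633 and 594 against 491 and 545. The libraries also held RNA of neighbouring tissues, such as *Orco*, the co-receptor of olfactory neurons of the 3rd segment (893 to 2859), and *ninaE*, the main rhodopsin of the eye (2447 to 11969).

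Few genes passed the test at this age. Of 14663 genes tested, 3 were called higher in males (0.0205%) and 4 lower (0.0273%). The 3 higher were *roX1* and *roX2*, the RNAs of dosage compensation, and *Pp1-Y1*, a phosphatase gene of the Y chromosome. The 4 lower were *CG5162*, *CG42323*, *Gr63a*, which encodes a subunit of the carbon dioxide receptor, and the long noncoding RNA *CR44110*. At an unadjusted p below 0.05 there were 596 genes higher in males (4.06%) and 682 lower (4.65%). The male and female values did not overlap in 3173 genes that were higher in males (21.6%) and 2817 that were lower (19.2%). The edgeR quasi-likelihood test on the recovered reads called 9 genes, all 7 of the limma calls among them. DESeq2 called 36 higher (0.246%) and 168 lower (1.15%), also with the same 7 among them. Where no tool is named below, a call is one of limma. Each of the 4 libraries weighed on the count. Without CT01 1 gene was called, which was none of the 7, without CT02 or without CT03 none was, and without CT04 129 were higher and 71 lower, the 7 among them.

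**Figure D1:**
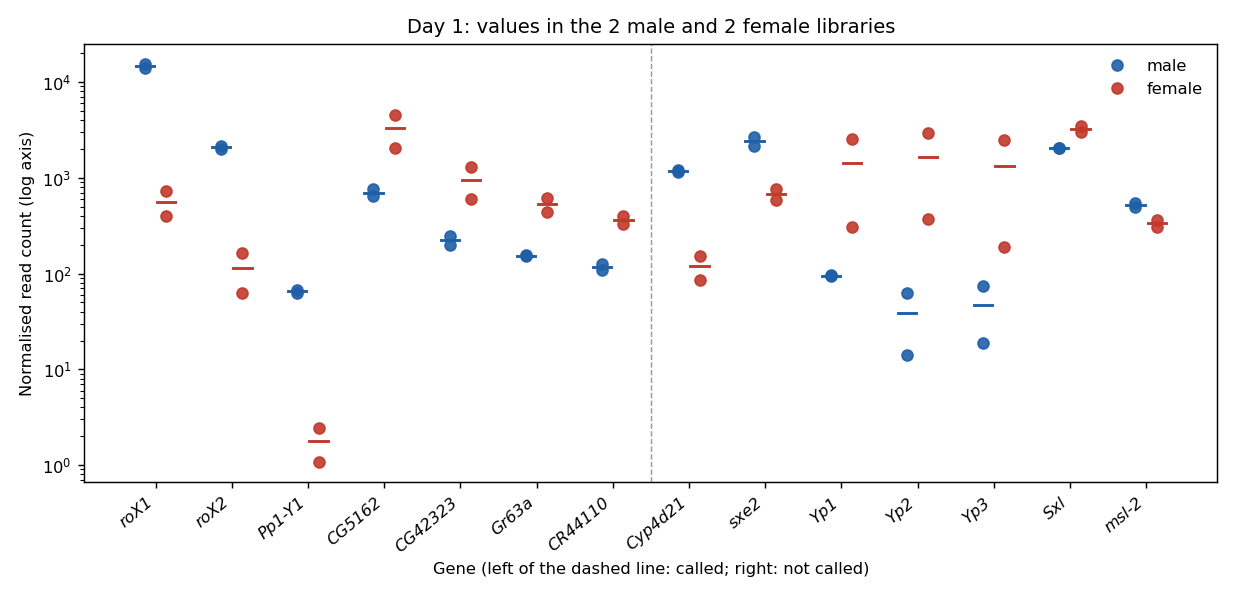
Normalised read count on a log axis of 14 genes in the male (blue) and female (red) libraries of day 1, each point a library and each bar the mean of 2. For the 7 genes left of the dashed line, which were called, the male and female points stand apart, as they do for the 7 to the right, which were not called.

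The roX RNAs, with *Pp1-Y1*, had the largest called differences. *roX1* (FBgn0019661, X:3857230-3862697 of dm6) stood at 14039 in CT01 and 15496 in CT02, against 726 in CT03 and 395 in CT04. Both males lay far above both females, a log2 difference of 4.78 (SE 0.73, limma adjusted p = 0.0274), or 27.5-fold. *roX2* (FBgn0019660, X:11579065-11580432) stood at 2010 and 2145 in males and at 164 and 62.4 in females. Its log2 difference was 4.34 (SE 0.66, adjusted p = 0.0274). In both RNAs CT03 was the higher of the females, and the males differed less from each other than the females did. The adjusted p of *roX1* was 1.03e-06 without the 4 libraries of day 50, where CT18, labelled female, had 16418 against 1118 in the other female library.

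The genes of the complex's proteins had smaller log2 differences than its RNAs. *msl-2*, the subunit that females do not make, had 501 and 542 in males and 309 and 367 in females, with no overlap. The log2 difference of 0.63 (SE 0.22) did not pass the test (adjusted p = 0.35). All 10 members of the dosage compensation list were tested, with a median log2 difference of 0.29 against 0.05 over all genes. *roX1* and *roX2* were called higher in males, none was called lower, and 5 members (50%) did not overlap between the sexes, all higher in males, against 21.6% higher and 19.2% lower over all genes. Genes that lie beside the roX genes did not share their size of difference. Apart from *ec* and *nod*, those tested up to 8739 bases away had log2 differences from -0.35 to 0.78. The largest of these was that of a gene 269 bases from *roX1* on the same strand (SE 0.35, limma adjusted p = 0.547). *ec*, which overlaps *roX1* on the other strand, had 285 and 336 in males and 387 and 434 in females. *nod*, a kinesin gene that starts 340 bases after *roX2*, stood at 38.3 and 72.7 in males and 11.1 and 15.1 in females (log2 difference 1.95, SE 0.49, adjusted p = 0.191). At days 5 and 25 *nod* ran from 40.9 to 120 in males and from 44.8 to 83.7 in females, so that its sexes overlapped there. *ec* and *nod* were chosen after their values were seen.

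Upstream of these, the sex determination genes showed little difference in the summed RNA of each gene. *Sxl* (X:7074550-7098053) stood at 2051 and 2039 in males and 2993 and 3448 in females. Both females lay above both males, but the log2 difference of -0.65 (SE 0.18) did not pass the test in limma (adjusted p = 0.227), while it did in DESeq2 (-0.66, adjusted p = 0.0946). *tra* had 137 and 80.1 in males and 82.6 and 107 in females, so that the sexes overlapped. *tra2* had 211 and 229 against 157 and 224, a log2 difference of 0.23 (SE 0.29). *dsx* and *fru*, the transcription factors that carry the sex-specific fate, differed by -0.11 (SE 0.25) and -0.29 (SE 0.19). The 95% interval of *dsx* ran from -0.64 to 0.43. Of the 18 members of the list none was called by limma or edgeR and *Sxl* alone by DESeq2. Without overlap 5 were higher (27.8%, against 21.6% of all genes) and 4 lower (22.2%, against 19.2%), shares near those of all genes. Gene counts do not separate splice forms, which is where the sexes are known to differ in *tra*, *dsx* and *fru*.

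The Y chromosome was read in males and hardly in females. Reads in Y-linked genes numbered 907 and 628 in the male libraries and 70 and 20 in the female libraries. *Pp1-Y1* (FBgn0261399, Y:9833-10786) had 71 and 63 reads in males and 2 and 1 in females, which after scaling is 37.7 times as many (95% exact counting interval 12.6 to 185). It was called by limma (adjusted p = 0.0274). *kl-2*, an axonemal dynein gene of sperm, had 256 and 255 normalised counts in males and 19.7 and 5.38 in females (adjusted p = 0.307). At day 50 CT18, labelled female, held 177 and CT17 held 0, and without that age the adjusted p was 0.00814. *WDY* had 109 male and 4 female reads, *kl-5* 143 and 7, and *kl-3* 106 and 7. *ARY* and *Ory* had no female read and were at least 11.5-fold and at least 7.61-fold higher in males, with 3 reads over both female libraries as the limit of a count of 0.

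Over the 12 Y-linked genes of the list, 10 passed the filter on low values. Among these 10, limma called *Pp1-Y1* higher, against 0.0205% of all genes, and DESeq2 called *ARY* and *Ory* too. Without overlap 9 were higher in males (90%, against 21.6% of all genes) and none lower (against 19.2%). The filter favours this, since it can be passed by the males alone. *Ccy* overlapped between the sexes, with 18.7 and 7.48 in males and 12.3 and 3.23 in females. Of the 2 genes under the filter, *Pp1-Y2* had 6 and 2 male reads and 1 female read, and *FDY* had 3 reads, all in CT03. CT03 held more Y-linked reads than CT04 although it was the shallower library. These intervals and limits cover counting error only. The genes of this list other than *Pp1-Y1* were chosen after their values were seen.

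X-linked genes lay lower in males than autosomal genes did, and the gap was widest among genes of low level. Over 2282 X-linked genes the median log2 difference was -0.16, against 0.08 over 12204 genes of the major autosome arms. On the X 3 genes were called lower and 2 higher, and on the major autosome arms 1 was called lower and none higher. At an unadjusted p below 0.05, 437 X-linked genes (19.1%) were lower in males and 59 (2.6%) higher. The autosome arms had 236 (1.9%) lower and 516 (4.2%) higher. At an unadjusted p below 0.001, the X held 57 of the 64 genes that were lower in males. Of the 168 genes that DESeq2 called lower, 142 were X-linked. Under the 19 settings tried, the median of the X minus that of the autosome arms stayed between -0.29 and -0.19. Settings that change only the limits of a call or the spread cannot move this value. With 1 of the day 1 libraries left out, which can move it, it also ran from -0.29 to -0.19.

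The gap differed between classes of level and was widest in the lowest. Among genes with a mean below 50 over the 4 libraries, the median was -0.69 for 604 X-linked genes and -0.16 for 3800 autosomal genes. Between 50 and 200 it was -0.24 against 0.01, and between 200 and 1000 it was -0.02 against 0.13. At 1000 and above the medians were 0.01 and 0.20, so that X minus autosomes went from -0.53 in the lowest class over -0.25 and -0.15 to -0.19 in the highest. The low class on the X was below that of the autosomes in each pairing of a male with a female library, with medians from -0.88 to -0.58 on the X and from -0.38 to 0.06 on the autosomes. The same difference at day 5 was -0.85, -0.58, -0.31 and -0.31 from the lowest class to the highest, and at day 25 it was -0.81, -0.62, -0.43 and -0.31. At day 25 the X medians lay between -0.47 and -0.40 in every class, and those of the autosome arms went from 0.34 in the lowest class to -0.12 in the highest. The medians over all X-linked genes were -0.41 at day 5 and -0.42 at day 25. Whether these X medians differ between ages was not tested, and the male libraries of day 25 were the shallowest of the series.

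**Figure D2:**
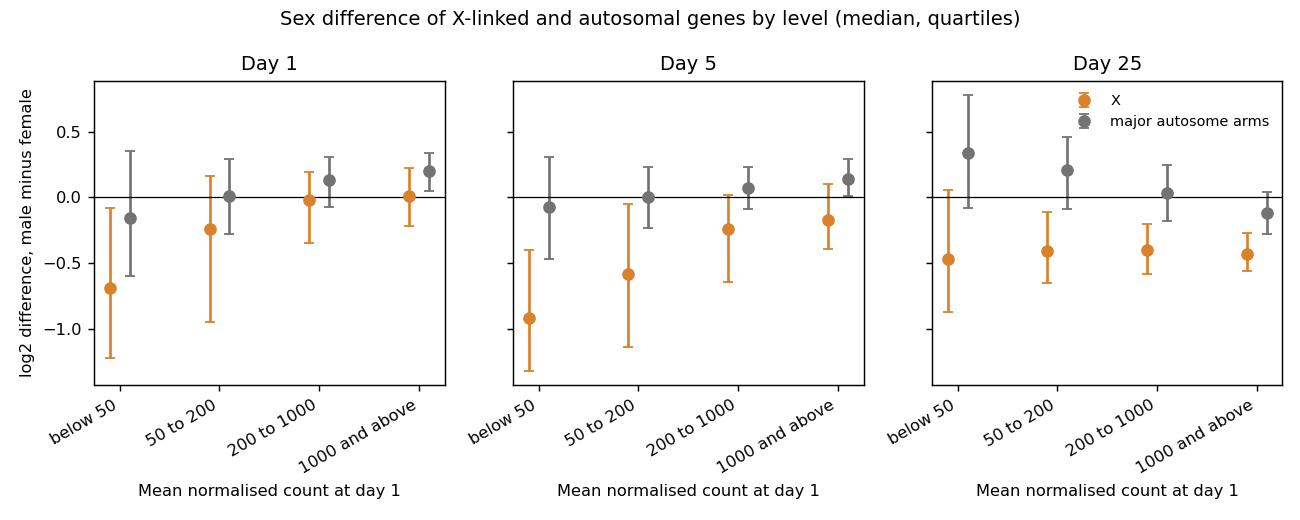
Median log2 difference of males minus females (points) with quartiles (bars) for genes of the X (orange) and of the major autosome arms (grey), in 4 classes of mean normalised count at day 1, at days 1, 5 and 25. At day 1 the X medians go from -0.69 in the lowest class to 0.01 in the highest, and those of the autosome arms from -0.16 to 0.20.

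The X-linked genes that were lower in males included the most abundant noncoding RNA of the chromosome. *CR34335* (FBgn0085364, X:3545860-3546110), a long noncoding RNA that lies within *CG32791*, stood at 133066 and 145446 in males and at 507244 and 250960 in females. It made up 1.07% of the reads of both male libraries, 4.05% of CT03 and 1.90% of CT04. The log2 difference was -1.36 (SE 0.37, limma adjusted p = 0.214), and the difference passed the test in DESeq2 (adjusted p = 0.00353). Its host *CG32791* had 790 and 633 in males and 1482 and 1566 in females. X-linked genes took 14.4% and 14.3% of male reads and 18.3% and 15.5% of female reads. Without *CR34335* these shares were 13.3% in both males, 14.3% and 13.6%. Another X-linked noncoding RNA, *CR40469*, had 2836 and 2977 against 10692 and 6183 (adjusted p = 0.138). It ranked the 4 libraries in the same order as *CR34335*, and whether the reads of these RNAs are independent was not tested. At days 5 and 25 the log2 differences were -0.42 and 0.03 for *CR34335* and -0.53 and -0.01 for *CR40469*. The receptor of sex peptide, *SPR* (X:5446656-5494012), stood at 314 and 248 in males and 462 and 561 in females (log2 difference -0.86, SE 0.21, adjusted p = 0.188). These 4 genes were chosen after their values were seen.

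**Figure D3:**
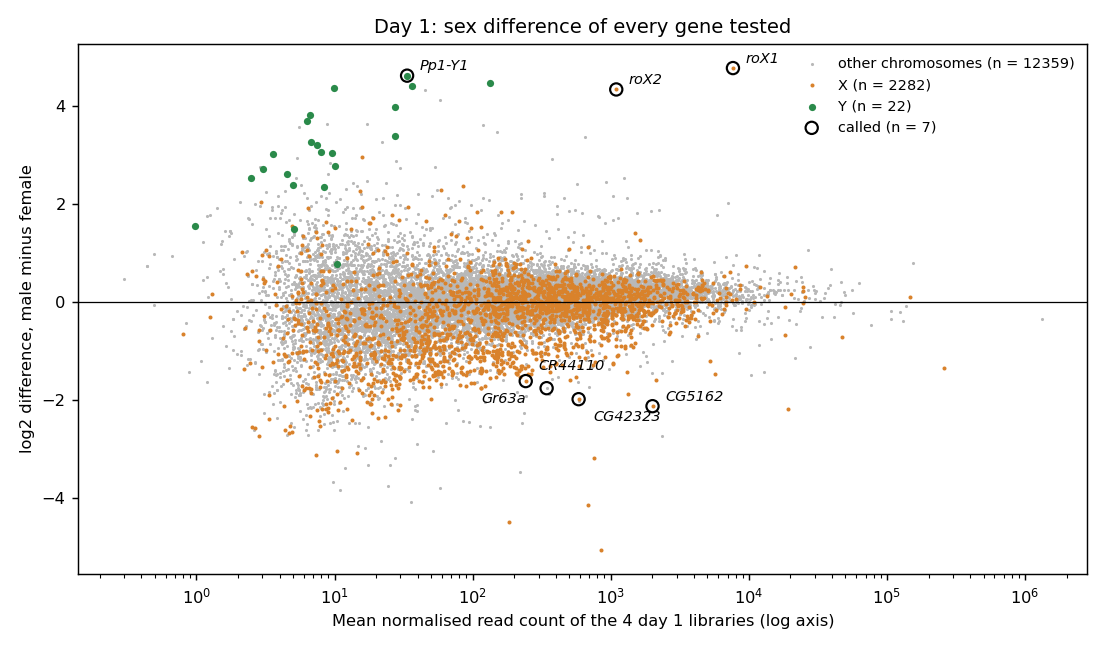
Log2 difference of males minus females at day 1 against the mean normalised read count of the 4 libraries (log axis) for 14663 genes, with the 2282 genes of the X in orange, 22 of the Y in green, the others in grey, and the 7 called genes circled and named. Y-linked genes lie above 0, and orange points extend below 0 most densely at low and middle counts.

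The called genes that were lower in males were 3 genes of the X and 1 of chromosome arm 3L. *CG5162* (FBgn0030828, X:17215304-17217365) stood at 643 and 757 in males against 4571 and 2049 in females. Both females lay above both males, with CT03 above CT04, and the log2 difference was -2.13 (SE 0.33, adjusted p = 0.0282). *CG42323* (FBgn0259223, X:18422413-18427001) stood at 198 and 247 in males and 1294 and 600 in females, again with CT03 highest (-1.99, SE 0.36, adjusted p = 0.0869). *CR44110* (FBgn0264941, X:14517290-14519516) had 110 and 127 against 402 and 330, with no library standing far from its group (-1.62, SE 0.27, adjusted p = 0.0483). Near the limit on the other side were the X-linked *CG14269* and *CR44754*, both with an adjusted p of 0.103 and both lower in males in every library. These 2 genes were chosen after their values were seen.

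The 4th of these genes belongs to smell, and other genes of olfactory neurons lay on the same side. *Gr63a* (FBgn0035468, 3L:3894999-3896603) stood at 155 and 153 in males and 621 and 443 in females, a log2 difference of -1.76 (SE 0.32, adjusted p = 0.0869). Its partner in the carbon dioxide receptor, *Gr21a*, had 68.5 and 141 in males and 431 and 325 in females (-1.92, SE 0.52, adjusted p = 0.214). The neurons that carry this receptor share their sensillum with neurons that express *Or42b* and *Or92a*. *Or42b* stood at 196 and 268 against 967 and 906 (adjusted p = 0.175), and *Or92a* at 264 and 374 against 1276 and 872 (adjusted p = 0.214). *Or59b*, a receptor of another sensillum, had 199 and 227 in males and 628 and 617 in females (adjusted p = 0.138). *Orco*, which all neurons with odorant receptors use, stood at 893 and 1314 against 2859 and 2263, a log2 difference of -1.23 (SE 0.47, adjusted p = 0.45). At day 5 *Orco* held 602 in one male library and 2107 in the other, and *Or42b* held 125 and 413. The spread of the test includes that pair of libraries. All 6 of these genes had both females above both males.

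Over the 51 odorant receptors tested the median log2 difference was -0.92, against 0.05 over all genes. None was called by limma or edgeR. DESeq2 called 6 lower, among them *Or42b* (adjusted p = 0.00353), *Or59b* (0.00215) and *Or92a* (0.0135), and none higher. Without overlap 27 were lower in males (52.9%, against 19.2% of all genes) and 2 higher (3.9%, against 21.6%). Their summed level was 4731 and 5172 in males and 12079 and 8688 in females. The 45 that lie on autosomes had a median of -0.68 and the 6 on the X -1.05. Of the autosomal ones, the 25 with a mean of 50 or more had a median of -1, where 16 were lower without overlap and none higher. The 102 ionotropic and gustatory receptors tested had a median of -0.47, and *Gr63a* was the only one that limma or edgeR called. DESeq2 called 5 lower, *Gr63a*, *Gr21a* (adjusted p = 0.0172) and the X-linked *Gr9a*, *Ir10a* and *Ir20a*, and none higher. Without overlap 51 were lower in males (50%, against 19.2% of all genes) and 8 higher (7.8%, against 21.6%). Their summed level was 6466 and 5965 in males and 10545 and 8515 in females. The 87 that lie on autosomes had a median of -0.38 and the 15 on the X -1. Of the autosomal ones, the 49 with a mean below 50 had a median of -0.26, against -0.16 for all autosomal genes of that level. The 38 with a mean of 50 or more had a median of -0.52, where 22 were lower without overlap and 2 higher. *Ir25a*, a co-receptor of ionotropic receptors, had 185 and 207 against 541 and 378 (adjusted p = 0.51). Secreted and support cell genes of the 3rd segment did not all lie on this side. *lush*, an odorant binding protein of pheromone sensilla, had 4839 and 6296 in males and 8346 and 4328 in females, and *Obp83a* had 12771 and 18292 against 36301 and 10837, with CT03 highest and CT04 lowest in both. *Obp28a* stood at 11344 and 14623 against 39333 and 20661 (log2 difference -1.15, SE 0.44, adjusted p = 0.454). In bulk samples fewer cells of a type and less RNA per cell cannot be told apart, and the part of 3rd segment tissue carried over in dissection was not tested. Apart from *Gr63a*, *Or92a*, *Orco*, *lush*, *Obp83a* and *Obp28a*, the genes of smell were chosen after their values were seen.

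Among genes that sense pheromones, *ppk23* (X:17566552-17569228), a channel of pheromone-sensing taste neurons, stood at 129 and 89.8 in males and 391 and 229 in females. The log2 difference was -1.47 (SE 0.35, adjusted p = 0.175), and the gene was chosen after its values were seen. Of the 17 tested members of the pheromone list none was called by limma or edgeR. DESeq2 called *ppk23* (adjusted p = 0.0159) and *Ir20a* (0.0907), both X-linked and both lower in males. Without overlap 8 were lower (47.1%, against 19.2% of all genes) and 1 higher (5.9%, against 21.6%), with a median of -0.33. Most members of this list are odorant, ionotropic or gustatory receptors, and *Ir20a* was counted above too. These shares are therefore not separate from those of the receptor lists.

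**Figure D4:**
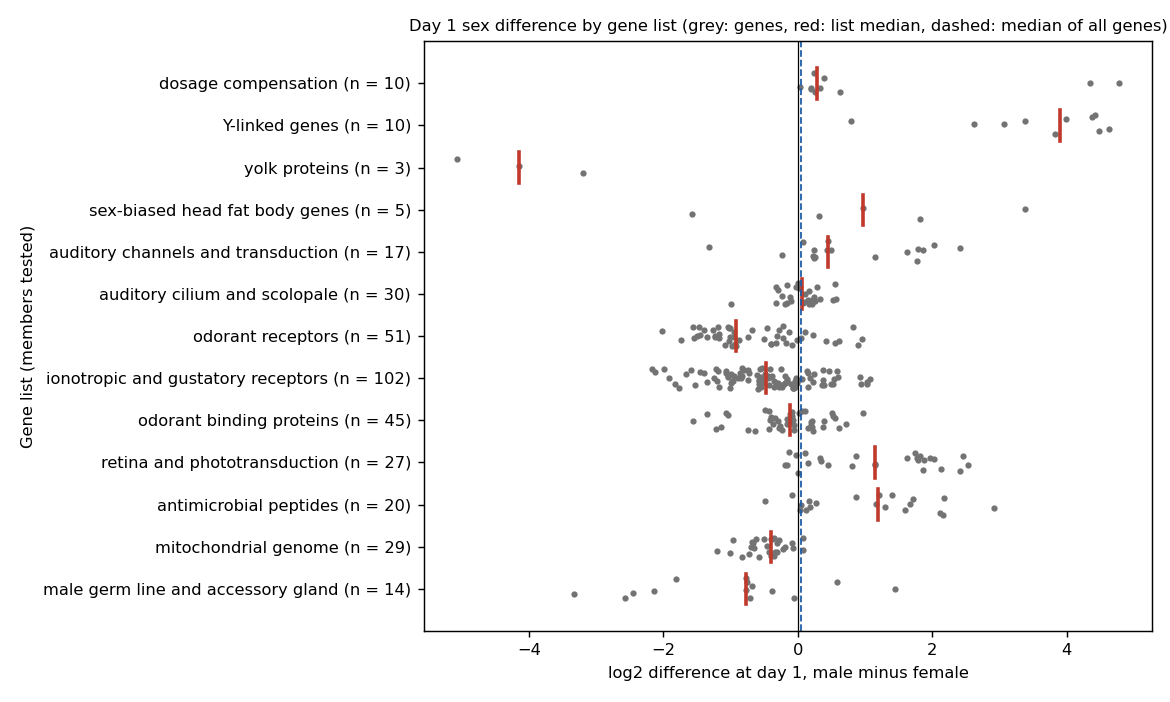
Log2 difference of males minus females at day 1 for each tested member (grey points) of 13 gene lists, with the median of each list (red bar) and of all genes (dashed line). Odorant receptors have a median of -0.92, retina genes one of 1.15, and the Y-linked and yolk protein lists lie farthest from 0.

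Genes of the sex-biased fat body were apart in both directions, and several passed the test in DESeq2 but not in limma or edgeR. The yolk protein genes, all X-linked, were low in both males and uneven in the females. *Yp1* (X:10053811-10055498) stood at 94.3 and 96.2 in males and at 305 in CT03 and 2528 in CT04. *Yp2* (X:10050951-10052636) had 14.2 and 63.0 against 372 and 2961, and *Yp3* (X:13759546-13761547) had 18.7 and 74.8 against 190 and 2456. In all 3 genes both females lay above both males, and CT04 held many times the level of CT03. The log2 differences were -3.19 (SE 0.96), -5.07 (SE 1.06) and -4.15 (SE 1.18), with adjusted p of 0.275, 0.138 and 0.238 in limma and 0.0468, 0.00455 and 0.0382 in DESeq2. At day 50 CT16, labelled male, held 25444 of *Yp1*, 17441 of *Yp2* and 18565 of *Yp3*, where the other male library CT15 held 1944, 1234 and 1484, and this pair entered the spread of the limma test. Without the libraries of day 50 the limma adjusted p were 0.176, 0.0614 and 0.19. *fit*, a female-biased fat body gene of feeding, had 10.7 and 9.62 in males and 17.3 and 59.2 in females, also highest in CT04 (-1.57, SE 1.00, adjusted p = 0.688).

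On the male side, *Cyp4d21* (FBgn0031925, 2L:7605600-7607701), a cytochrome P450 also known as *sxe1*, stood at 1222 and 1164 in males and 153 and 85.0 in females. The males lay close together and far above both females, by a log2 difference of 3.37 (SE 0.68, adjusted p = 0.138). *sxe2* (FBgn0038398, 3R:16083878-16087222), a lipase gene, stood at 2140 and 2663 against 766 and 594 (1.82, SE 0.34, adjusted p = 0.103). DESeq2 called both, with adjusted p of 0.0135 and 0.000125. Without the libraries of day 50, both passed in limma too, with adjusted p of 0.00174 and 0.00246, as did *Yp2*. That fit called 9 genes higher (0.0614%) and 12 lower (0.0818%), with all 7 of the calls above among them. *to*, a male-biased fat body gene of feeding, overlapped between the sexes, with 7292 and 6168 against 7068 and 4102. *Obp99b* had 892 and 5827 in males and 1025 and 1330 in females, so that its mean rested on CT02. *sxe2* was chosen after its values were seen. It overlaps a gene of the other strand, and since the library kit does not mark strand, reads of such pairs, like those of *roX1* and *ec*, cannot be told apart.

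Hearing genes gave no call in limma, edgeR or DESeq2. Of the 17 tested genes of auditory channels and transduction, 12 were higher in males without overlap (70.6%, against 21.6% of all genes) and none lower (against 19.2%), with a median of 0.45. That list includes photoreceptor genes, and the 10 members that the retina list does not hold had a median of 0.24, with 5 higher and none lower. Genes of the major autosome arms with a mean of 200 to 1000 had a median of 0.13, and those at 1000 and above 0.20. Of 13 neuronal genes 7 were higher without overlap (53.8%) and 2 lower (15.4%). Of 13 glial genes 2 were higher (15.4%) and 1 lower (7.7%). Whether hearing genes lay apart from other genes of their level was not tested. The log2 differences of *nan*, *iav* and *nompC* were 0.26 (SE 0.24), 0.44 (SE 0.24) and 0.24 (SE 0.18), with adjusted p of 0.78, 0.638 and 0.73. The 95% interval of *nompC*, one of the channels proposed for sound transduction, ran from -0.13 to 0.62. The 30 genes of the auditory cilium and scolopale had a median of 0.06, with 6 higher (20%) and 7 lower (23.3%) without overlap, shares near the 21.6% and 19.2% of all genes. The 2 most abundant members of that list went in different directions. *Dhc93AB*, a dynein gene of the motile cilium of these neurons, had 2454 and 2255 in males and 1481 and 1812 in females (0.52, SE 0.21, limma adjusted p = 0.466). *CG9313* had 1897 and 2082 in males and 2421 and 2564 in females (-0.33, SE 0.18, limma adjusted p = 0.641), also without overlap. The 11 tested genes of the sodium pump and gap junctions had a median of 0.07.

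Markers of other tissues also lay apart by sex or by single libraries. The 27 retina genes had a median of 1.15, with 20 higher in males without overlap (74.1%, against 21.6% of all genes) and none lower (against 19.2%), none of them called by limma, edgeR or DESeq2. *ninaE* stood at 11969 and 10754 in males and 3192 and 2447 in females, and *trp*, a channel of phototransduction, at 2175 and 2079 against 332 and 405. At day 5 *ninaE* held 523 in one male library and 77899 in the other, and the spread of the test includes that pair. The summed level of the retina list was 59683 and 51123 in males and 26954 and 23082 in females. Antimicrobial peptide genes had a median of 1.19 over 20 genes, with 11 higher (55%, against 21.6% of all genes) and 1 lower (5%, against 19.2%) without overlap. DESeq2 called 3 of them higher and none lower, and limma and edgeR called none. The summed level of that list overlapped between the sexes, with 20135 and 24323 in males and 26213 and 14032 in females. Its 2 most abundant members did not lie higher in both males. *Drsl5* overlapped, with 14474 and 12604 in males and 20966 and 8239 in females, and *Drsl4* was lower in males, with 1993 and 1898 against 2976 and 2523. CT02 was the highest library in *CecC* (92.5 and 683 against 39.4 and 82.9), in *AttA* (188 and 1171 against 29.6 and 125) and in *AttB* (142 and 987 against 56.7 and 121). It also held the most of *Fbp1* and *Fbp2*, storage protein genes of the fat body, with 4041 and 3985, where the other 3 libraries held 280 to 494 and 181 to 563. The part of these tissues in the differences above was not tested.

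CT03 stood apart in some genes of the male germ line and accessory gland, although it was labelled female. It did not in *dj*, one of the most abundant members of that list, with 200 and 203 in males, 271 in CT03 and 256 in CT04. *Mst84Db* had 430 in CT03 and 50.6 in CT04 against 30.3 and 19.2 in males, *Mst87F* had 277 and 55.9 against 18.7 and 25.7, and *SP*, sex peptide, had 66.6 and 28.0 against 3.56 and 3.21. The summed level of that list was 511 and 480 in males, 1523 in CT03 and 683 in CT04. Of its 14 tested members 8 were lower in males without overlap (57.1%, against 19.2% of all genes) and 1 higher (7.1%, against 21.6%). Transcripts of the mitochondrial genome took 13.9% and 14% of male reads and 16% and 19.3% of female reads. Their 29 tested genes had a median of -0.39, with 20 lower in males without overlap (69%, against 19.2% of all genes) and none higher (against 21.6%). *CecC*, *AttA*, *AttB*, *trp*, *Mst87F* and *SP* were chosen after their values were seen. In all, 41 of the 44 lists examined held no gene called by limma, also 41 none by edgeR, and 30 none by DESeq2, among the last muscle, glia, neurons, hemocytes and ribosomal proteins.

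The sex difference at day 1 was set against the mean of those at days 5 and 25 in the same model, to ask whether it was larger or smaller in newly eclosed flies. No gene was called (0% of 14663), and 797 had an unadjusted p below 0.05 (5.44%). edgeR called none and DESeq2 9. The roX RNAs differed from their later sex difference by less than 1 SE. The log2 difference of *roX1* was 4.78 at day 1, 5.73 at day 5 and 4.97 at day 25, and day 1 minus the later mean was -0.57 (SE 0.89). That of *roX2* was -0.44 (SE 0.80). For *Yp1* the 3 values were -3.19, -5.51 and -6.64. Female levels of *Yp1* were 2039 and 11528 at day 5 and 17192 and 16194 at day 25, while males stayed at 94.3 to 184 over the 3 ages. The test against the later ages gave 2.88 (SE 1.18, adjusted p = 0.83).

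*sxe2* had the smaller difference at day 1. Its males stood at 24588 and 19022 at day 5 and at 7918 and 11210 at day 25, against 1624 and 1260 and then 643 and 568 in females. The log2 difference went from 1.82 at day 1 to 3.92 and 3.96, and day 1 minus the later mean was -2.12 (SE 0.42, unadjusted p = 0.000118, adjusted p = 0.678). *Cyp4d21*, in contrast, had 3.37 at day 1, 4.17 at day 5 and 3.32 at day 25. *CG5162* lay closer between the sexes at the later ages. At days 5 and 25 it lay between 196 and 578 in males and 344 and 823 in females, with log2 differences of -0.26 and -0.46. Day 1 minus the later mean was -1.77 (SE 0.41, limma unadjusted p = 0.000477, adjusted p = 0.83). *CG5162*, *Gr63a* and *CR44110* were named for their difference at day 1, a choice that itself favours smaller differences at other ages. *CG12003*, an autosomal gene (3L:1565392-1567802) chosen after its values were seen, stood at 179 and 195 in males and 658 and 479 in females at day 1 and between 68.3 and 99.4 in all 8 libraries of days 5 and 25. *Gr63a* ran from 88.6 to 146 in males and from 109 to 203 in females at those ages, where its log2 differences were -0.44 and -0.50. *CR44110* kept -1.54 at day 5 and had -0.65 at day 25.

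**Figure D5:**
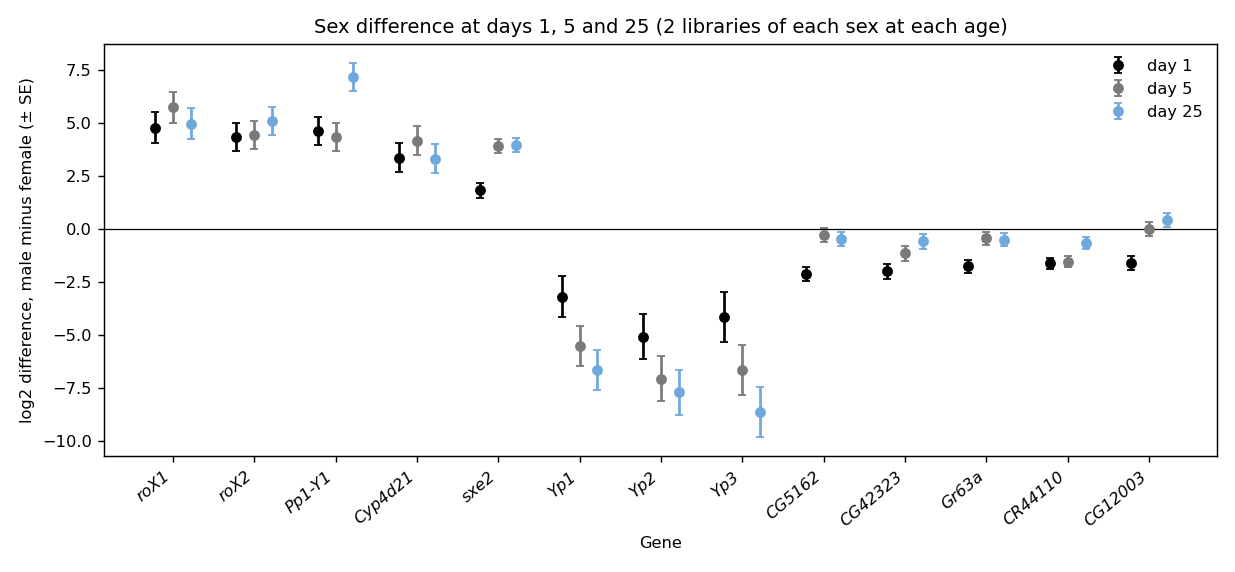
Log2 difference of males minus females with its standard error for 13 genes at day 1 (black), day 5 (grey) and day 25 (blue), each from 2 libraries of each sex. The roX RNAs keep differences between 4.34 and 5.73, *sxe2* goes from 1.82 to 3.96, and *CG5162* goes from -2.13 to -0.26 and -0.46.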

How the data were processed

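RNA was measured in 18 libraries of the 2nd antennal segment. The authors used SMART-Seq v4 and Nextera XT kits, sequenced in pairs on a NextSeq 500, aligned reads to dm6 in Partek Flow and counted them per gene with HTSeq. The deposited signal values are those counts after division by a size factor from DESeq2, and whole reads were recovered by undoing it (100% of values within a tolerance of 0.01). The deposited columns of the authors' own comparisons between ages (log2 fold changes, their errors, Wald statistics and p-values) were not used, nor was their mean over all libraries.

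Log2(value + 1) was fitted with limma 3.58.1 (trend) in R 4.3.3, with 1 coefficient for each of 9 groups (degrees of freedom 9 residual, 7.42 prior), for genes that reached 10 in 2 or more libraries. The replicates of a group differed by more than counting noise (chi-square per gene 22.5 in males and 55.6 in females of day 1). Alternatives were edgeR 4.0.16, DESeq2 1.42.0, other scalings, pseudocounts, filters and limits, and libraries left out. Near the minimum of 10, counting error is large, and 2 libraries per group limit precision elsewhere.

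The comparison and the gene lists were chosen with earlier results of these data known. Genes named are the called genes with a mean of 50 or more at day 1 and no overlap (up to 15 in each direction), up to 4 called members or the 2 most abundant members of a list, and 16 genes of sex and hearing named outright; others are said to have been chosen after their values were seen. Of 381 gene IDs without annotation, 372 were named from the reference, whose gene positions on dm6 were used. *CR34335* takes its position from the deposited table. No sequence is shown.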

Additional observations from a re-analysis of the deposited data

How the results depend on the processing

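The count at day 1 (7 genes) depended on which libraries set the spread and on the test. It was 204 with DESeq2, 21 without the libraries of day 50, 27 with the day 1 libraries alone, 3 when tested against a 1.5-fold minimum, and 0 to 200 with 1 of the 4 day 1 libraries left out, where the lone library of a group was assumed to vary like the other groups. It was within 1.5 times of 7 under the other settings, 9 with edgeR or TMM scaling and 10 with scaling to the median of autosomal genes, the last of these chosen after seeing the data. The count against days 5 and 25 was 0, and it was 9 with DESeq2, 1 without the libraries of day 50 and 0 to 26 with 1 day 1 library left out. The cause was not tested. All 7 genes remained called with edgeR, DESeq2, TMM scaling and both other pseudocounts, 5 did without the filter or with an adjusted p below 0.05, and none did without CT01, CT02 or CT03. Of 64 genes named, 10 changed sign when a single library was left out, none of them called. Their log2 differences then ran from -0.04 to 1.61 (*Ccy*), -0.79 to 3.05 (*Fbp1*), -1.41 to 3.05 (*Fbp2*), -1.25 to 0.50 (*Obp83a*), -0.39 to 2.32 (*Obp99b*), -0.29 to 0.07 (*dsx*), -0.60 to 0.35 (*lush*), -0.08 to 0.71 (*to*), -0.22 to 0.54 (*tra*) and -0.03 to 0.49 (*tra2*). No paired analysis was possible because the labels give the libraries no replicate numbers that males and females share. The 2 libraries of a sex and the spread between the females, which was wide in the yolk protein genes, limit what can be detected.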
